A study of Caenorhabditis elegans with 4 samples.

Results

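Broad MRG-1 domains were defined as nuclear peaks of at least 5000 bp in the replicate 1 list that shared at least 1 bp with a replicate 2 peak that was also at least 5000 bp wide. Of 3158 nuclear peaks in replicate 1, 399 met this rule, which is 12.6% (exact 95% binomial interval 11.5 to 13.8). The domains were thus chosen by peak width in these same lists, so their widths, scores, replicate overlap and series-wide peaks are given as descriptions, and no difference from narrower peaks was tested. The libraries came from whole early embryos of the wild-type *Caenorhabditis elegans* strain N2, a mixed population of males and hermaphrodites, kept at 20 °C. They were 2 chromatin immunoprecipitation (ChIP) libraries made with the MRG-1 antibody SDQ3927 and 2 input DNA libraries. Input values were not used here, and there was no other genotype or treatment to compare with. Cells of every embryonic lineage were pooled, so a domain cannot be assigned to a cell type. The sources used here do not say whether the ChIP replicates were separate cultures, and the read depth of each list is unknown.

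MRG-1 is the worm relative of mammalian MRG15, a protein with a chromodomain, a fold that reads methylated histones. MRG15 and its yeast relative are known for binding nucleosomes methylated at lysine 36 of histone H3, a mark laid down over the bodies of transcribed genes. In *C. elegans* the protein is supplied by the mother and is needed for germ cells to survive and develop. Worm autosomes have gene-dense centres and more repetitive arms, and the X chromosome is largely silent in the germ line.

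The domains were wide in both libraries. In replicate 1 their widths ran from 5007 to 20450 bp with a median of 6929 bp, and in replicate 2 those of their partners ran from 5001 to 18537 bp with a median of 7295 bp. In all, 111 domains were under 6000 bp in replicate 1, 130 lay from 6000 to 7500 bp, 105 from 7500 to 10000 bp and 53 at 10000 bp or more. The width reached 10000 bp in both replicates in 35 domains. The replicate 2 partner was the wider one in 249 domains and the narrower one in 150, with a median width ratio of 1.02, and in 361 domains the widths were within a factor of 1.5 of each other. Together the domains spanned 3.03 Mb, or 30.2% of all bases in replicate 1 peaks and 3.02% of the chromosome spans.

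The 5000 bp limit cut through a continuous range of widths. The narrowest members were 5007 bp on chromosome II (11451091 to 11456097), 5010 bp on III (9951860 to 9956869) and 5012 bp on V (11978045 to 11983056), with replicate 2 partners of 5641, 6850 and 5072 bp. The widest replicate 1 peaks just under the limit that met a broad replicate 2 peak were 4934 bp on III (5311384 to 5316317), 4885 bp on II (9589913 to 9594797) and 4875 bp on II (5425575 to 5430449), with partners of 8011, 7557 and 8809 bp. In total, 58 replicate 1 peaks of 4000 to under 5000 bp overlapped a broad replicate 2 peak. Coordinates here and below are those of WormBase WS220, counted from 1.

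**Figure D1:**
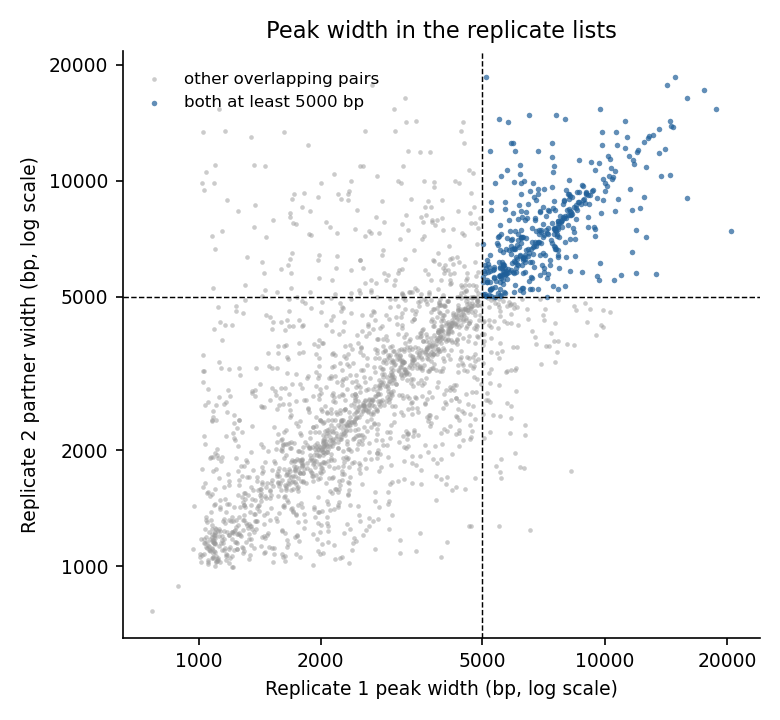
Width of each replicate 1 peak (x axis, bp, log scale) against that of the replicate 2 peak with which it shares most bases (y axis, bp, log scale), for all 2319 overlapping pairs; dashed lines mark 5000 bp. Blue points, at least 5000 bp in both lists, continue the diagonal of the narrower pairs with no gap at the limit.

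When the choice was made in 1 library alone, the other library gave widths that the choice had not used. Replicate 1 peaks of at least 5000 bp had replicate 2 partners with a median width of 6614 bp (quartiles 5225 and 8407 bp, 508 peaks), while those under 5000 bp had partners of 2665 bp (1774 and 3961 bp, 1811 peaks). In the reverse direction the medians were 6304 bp (511 peaks) and 2588 bp (1782 peaks). A partner was found for 95.1% of the broad replicate 1 peaks (92.9 to 96.8) and for 69.0% of the narrower ones (67.2 to 70.8). A wide peak meets another more easily, so part of that difference is built into the overlap rule.

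Not every broad peak became a domain. Replicate 1 held 534 nuclear peaks of at least 5000 bp, of which 74.7% (70.8 to 78.4) were domains, and replicate 2 held 544, of which 402 (73.9%, 70.0 to 77.5) met a broad replicate 1 peak. The 402 exceeds the number of domains because some domains met several replicate 2 peaks. Of the other 135 broad replicate 1 peaks, 26 had no replicate 2 peak at all and 109 had a narrower one, with a median width of 3917 bp. Of the other 142 in replicate 2, 33 had no partner and 109 had a narrower one, with a median of 3945 bp. In 51 and 52 of these cases the narrower partner was 4000 to under 5000 bp wide, just under the limit.

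Nearly all domains were autosomal. Chromosome III held 105 domains (26.3% of all, 22.1 to 30.9), chromosome I held 96, II held 82, IV held 66, V held 49 and X held 1. Per Mb of chromosome span this was 7.62 on III, 6.37 on I, 5.37 on II, 3.77 on IV, 2.34 on V and 0.0565 on X. Replicate 1 peaks under 5000 bp followed the same order from III (43.1 per Mb) to I (39.7), II (27.8), IV (26.1), V (19.1) and X (8.47). The domains covered 5.87% of chromosome III, 4.98% of I, 4.02% of II, 2.92% of IV and 1.61% of V. Per 1000 protein-coding genes (gene numbers of WBcel235) there were 39.7 domains on III, 33.4 on I, 23.8 on II, 20.1 on IV, 9.81 on V and 0.366 on X. Narrower peaks per 1000 genes numbered 225 on III, 208 on I, 139 on IV, 123 on II, 80.1 on V and 54.9 on X. By this measure II and IV changed places.

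As a share of a chromosome's own replicate 1 peaks, the domains varied less among the autosomes than they did per Mb. The share was highest on II at 15.3% (12.4 to 18.6), followed by III at 14.4% (11.9 to 17.2), I at 13.3% (10.9 to 16.0), IV at 12.0% (9.44 to 15.1) and V at 10.4% (7.80 to 13.5). The intervals of all autosomes overlap, those of II and V included. On X it was 0.649% (0.0164 to 3.56), or 1 of 154 peaks, against 13.2% (12.1 to 14.5) of 3004 autosomal peaks. Median replicate 1 widths were alike on the autosomes, from 6412 bp on V to 7155 bp on IV.

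The single X domain was 7063 bp wide in replicate 1, between 4611553 and 4618615. In replicate 2 it was 7745 bp wide, between 4611013 and 4618757. Its score rank percentile was 52.8 in replicate 1 and 52.9 in replicate 2, whereas the median domain stood at 87.5 and 89.2. This percentile is the share of a list's peaks with a lower score, with tied scores placed at their average rank. X also carried 3 broad replicate 1 peaks that met no replicate 2 peak, the widest of them 10400 bp from 7351182 to 7361581. Of the 3 broad replicate 2 peaks on X, the second (6088686 to 6093734, 5049 bp) met a replicate 1 peak of 4000 bp and the last (12847413 to 12853192, 5780 bp) met none.

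On the autosomes most domains lay in the centres, taken as the middle 50% of each chromosome span. The centre held 290 of 398 autosomal domains, or 72.9% (68.2 to 77.2), against 47.4% (45.4 to 49.4) of the 2474 autosomal replicate 1 peaks under 5000 bp. This is 7.03 domains per Mb in the centres and 2.62 per Mb in the arms, a ratio of 2.69, where the narrower peaks had 28.4 and 31.5 per Mb, a ratio of 0.902. The centre held more domains than both arms together on each of the 5 autosomes. It held 83.7% of the domains of V, 79.0% of III, 74.4% of II, 65.2% of IV and 64.6% of I. The intervals cover counting error only, and peaks of a library are not independent samples of the genome.

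The arms were not evenly filled. The left arm of chromosome II held 3 domains and its right arm 18, although narrower replicate 1 peaks numbered 83 and 159 there. On III the arms held 7 and 15 domains, on IV 9 and 14, on I 17 and 17, and on V 5 and 3. Narrower peaks numbered 121 and 186 on III, 165 and 73 on IV, 176 and 139 on I, and 107 and 92 on V. On IV the arm with more domains thus had fewer narrower peaks. In bins of 10% of the autosomal spans, the leftmost bin held 22 domains, the next 9 and the bin after that 35. On the right side the last bin held 31 and the bin before it 16. Chromosomes II, III and V had 0 domains from 10% to 20% of their span, while their outermost left bins held 3, 6 and 3. Narrower peaks numbered 26, 56 and 26 from 10% to 20%, and 41, 41 and 53 in the outermost left bins.

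**Figure D2:**
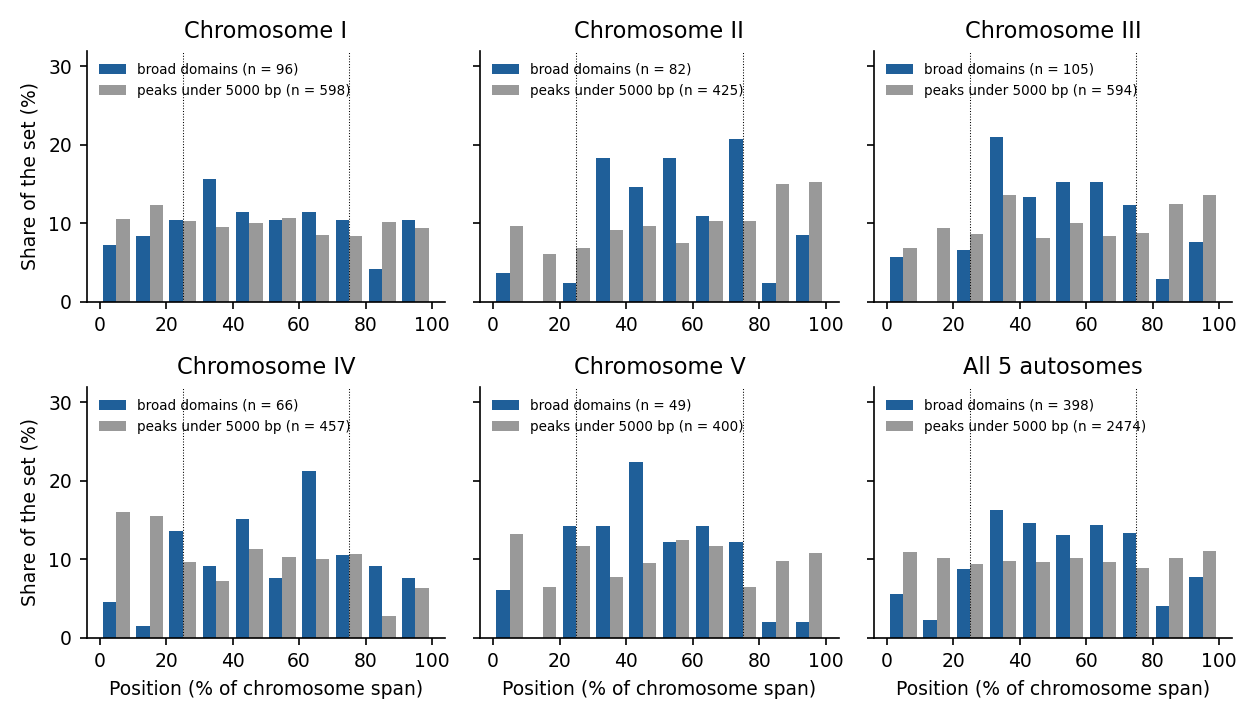
Share of broad domains (blue) and of replicate 1 peaks under 5000 bp (grey) by position of the midpoint, in bins of 10% of the chromosome span, for each autosome and all 5 together; dotted lines bound the centre. Over all autosomes the blue bars are highest from 30% to 80% of the span and lowest from 10% to 20%, while the grey bars stay between 8.93% and 11.1%.

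The replicates differed in where their unmatched broad peaks lay. Among autosomal broad peaks that were not domains, the centre held 50 of 132 in replicate 1 (37.9%, 29.6 to 46.7) but 121 of 140 in replicate 2 (86.4%, 79.6 to 91.6). Peaks under 5000 bp differed in the same direction, with 57.1% (55.0 to 59.3) of them in the centre in replicate 2 against 47.4% in replicate 1. The part of this library difference in the central position of the domains was not tested. Broad replicate 2 peaks, chosen without replicate 1, were 75.8% central (71.9 to 79.3), and broad replicate 1 peaks, chosen without replicate 2, were 64.2% central (59.9 to 68.2). Each lay above the narrower peaks of its own list.

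Domains of the arms and the centres were compared in width and score. The 108 in the arms had a median width of 7463 bp in replicate 1 and 6844 bp in replicate 2, and the 290 in the centres 6729 and 7455 bp. The arm domains were thus the wider ones in replicate 1 and the narrower ones in replicate 2. Median score rank percentiles were higher in the arms in both replicates, at 92.4 and 92.9 against 85.3 and 88.0 in the centres.

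The replicates placed most single edges of a domain close to each other, but 151 domains (37.8%) had an edge off by more than 1000 bp. The median absolute offset was 160 bp at the left edge and 210.0 bp at the right. Its upper quartile was 732 and 817 bp. Both edges lay within 100 bp in 55 domains (13.8%), within 500 bp in 169 (42.4%, 37.5 to 47.4) and within 1000 bp in 248 (62.2%). In 63 domains, 1 edge was matched within 100 bp while the other was off by more than 1000 bp, and in 18 domains both were off by more than 1000 bp. Replicate 2 reached further out at both edges in 150 of the 399 domains and lay inside at both in 81. In 1596 overlapping pairs of peaks both under 5000 bp these counts were 550 and 391. The median Jaccard index, the shared bases over the joint span, was 0.892.

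Pairs in which both peaks were under 5000 bp had closer edges in bp but a smaller shared fraction. In 1596 such pairs the median offsets were 112 and 116 bp, and both edges lay within 500 bp in 60.8% (58.3 to 63.2). In 146 of them 1 edge was within 100 bp and the other off by more than 1000 bp, and in 18 both were off by more than 1000 bp. With replicate 2 partners of any width (1811 peaks) the median offsets were 130 and 131 bp. Both edges then lay within 500 bp in 53.7% (51.4 to 56.0). The summed offset of both edges was 784 bp in the median domain, or 11.8% of its width, and 412 bp or 17.5% of the width in the narrower pairs, whose median Jaccard index was 0.842. A short peak has less room for an offset before the overlap is lost, so the sets are not on an equal footing.

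**Figure D3:**
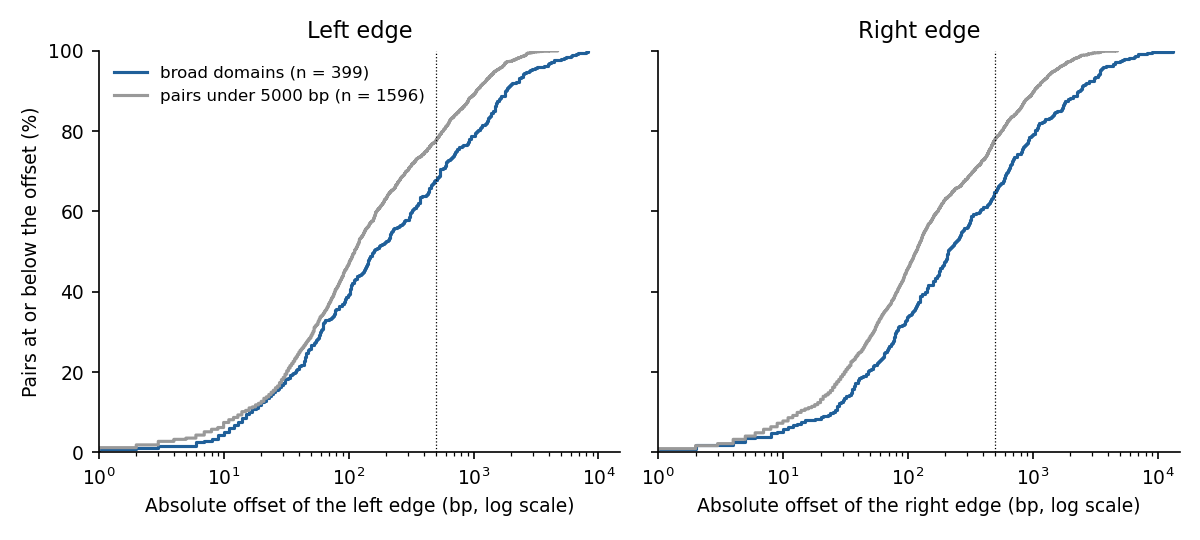
Cumulative share of pairs (y axis, %) whose left or right edges in the replicates are no further apart than the offset on the x axis (bp, log scale), for broad domains (blue) and pairs of peaks both under 5000 bp (grey); the dotted line marks 500 bp. The grey curves lie to the left, with medians of 112 and 116 bp against 160 and 210.0 bp.

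In the best matched domains the replicates drew the same boundaries almost to the base. The domain on chromosome II from 6487850 to 6493606 (5757 bp) started at the identical base in replicate 2 and ended 8 bp earlier. The domain on V from 4343699 to 4350476 (6778 bp) also had a summed offset of 8 bp. The next were on III from 10110988 to 10116806 with 15 bp, on I from 4367454 to 4374706 with 20 bp and on II from 11124519 to 11133239 with 27 bp. Close edges did not require a similar score rank. The domain on V stood at a percentile of 65.5 in replicate 1 and 94.4 in replicate 2, and that on I at 71.5 and 95.01.

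The worst matched domains were mostly places where 1 library joined what the other kept apart. Domains on chromosome I from 5114749 to 5119858 and from 5122543 to 5137480 fell into a single replicate 2 peak from 5114523 to 5133059 (18537 bp), with summed offsets of 13427 and 12441 bp. That joined peak stood at a percentile of 21.2 in replicate 2, and its parts at 79.0 and 58.9 in replicate 1. On III, the widest replicate 1 domain (13287793 to 13308242, 20450 bp) met 3 broad replicate 2 peaks, the best of them only 7405 bp wide. There the wide replicate 1 peak ranked low, at 13.5, and the narrower replicate 2 peak high, at 96.1. The other cases among the 5 worst were on IV from 5361025 to 5366510, with a replicate 2 partner of 14444 bp, and on II from 5387300 to 5393084, with a partner of 14236 bp.

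Joins and splits between broad peaks alone made up the smaller part. Replicate 2 joined a pair of replicate 1 domains at 5 sites (1 each on I, II, III, IV and V), and 9 domains met at least 2 broad replicate 2 peaks. The 10 joined domains had a median percentile of 79.7 in replicate 1 and 60.3 in replicate 2, and the 9 split ones 80.7 and 93.8. The remaining 380 domains, matched to a single broad peak, had 88.3 and 89.4. Counting replicate 2 peaks of any width, 359 domains met 1 peak and 40 met more, and in 56 domains the partner also met at least 1 other replicate 1 peak. Peaks of any width matched 1 to 1 in 306 domains (76.7%), and 93 were joined or split. An edge was off by more than 1000 bp in 83 of those 93 and in 68 of the 306. Over all domains, 95.7% of all domain bases lay inside replicate 2 peaks.

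Score and width were weakly related among the domains, in a direction that depended on the width limit. Across the 399 domains the authors' score and the width had a Spearman's rho of -0.03 in replicate 1 and -0.22 in replicate 2 (Pearson's r on log10 values -0.19 and -0.34). Peaks under 5000 bp had a rho of 0.76 in replicate 1 (2624 peaks) and 0.78 in replicate 2 (2331 peaks). These values describe peaks that share a library and a caller. A narrow range of widths within a set limits its rho. The mean rho of the replicates was -0.12 at the 5000 bp limit, 0.13 at 4000 bp and -0.36 at 7500 bp, and 0.038 when peaks less than 500 bp apart were merged.

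By width class the score rank of replicate 1 domains was highest in the middle classes. Its median percentile was 85.1 under 6000 bp, 91.3 from 6000 to 7500 bp, 89.2 from 7500 to 10000 bp and 76.1 at 10000 bp or more. The replicate 2 partners of the same domains stood at 87.8, 91.9, 90.8 and 82.4. Over all peaks of each list, domains or not, the class of 10000 bp or more was again below the class before it, with replicate 1 at 75.7 against 88.2 and replicate 2 at 74.9 against 88.4. The widest class overlapped the other list for 87.1% of its 62 peaks in replicate 1 and for 84.0% of its 75 in replicate 2, and the class before it for 94.6% of 130 and 95.2% of 145.

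**Figure D4:**
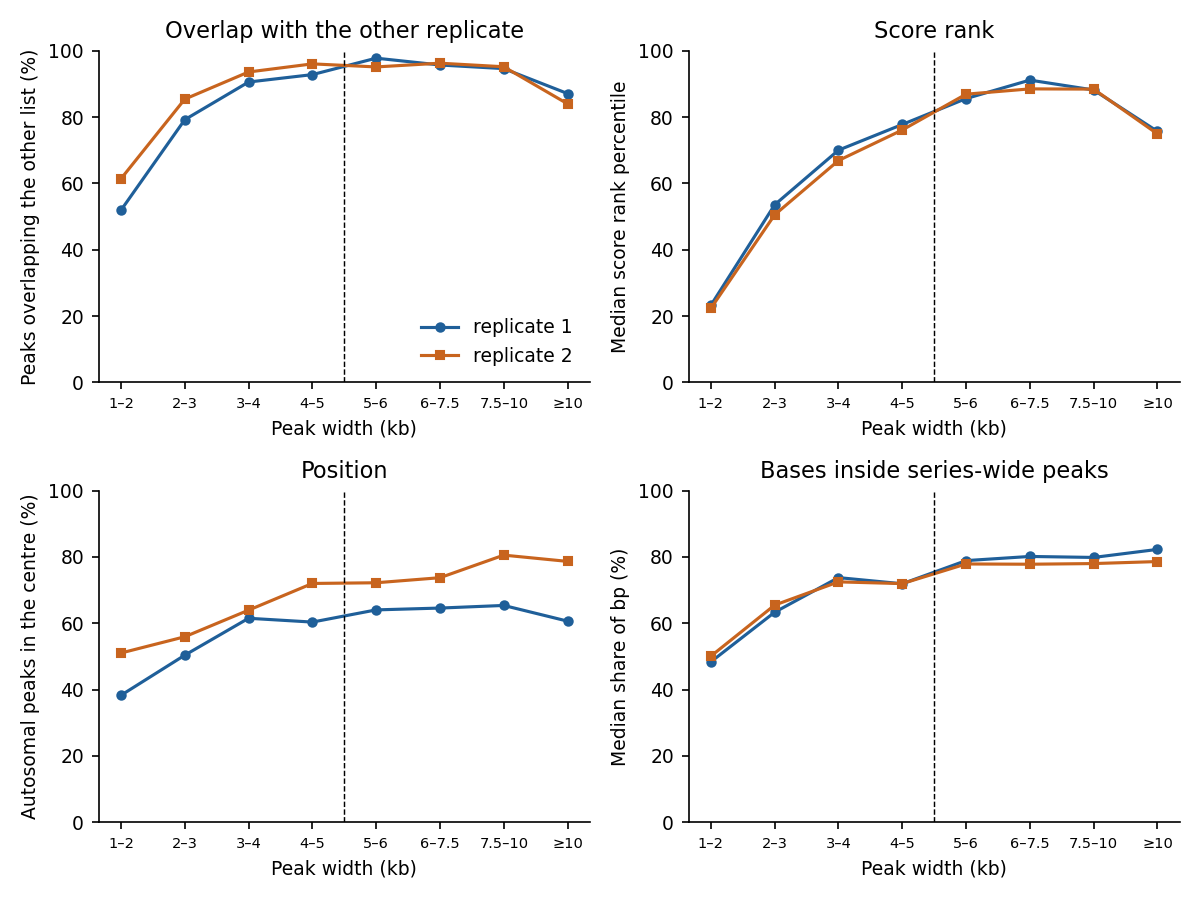
Values by peak width class (x axis, kb) for all peaks of replicate 1 (blue) and replicate 2 (orange): overlap with the other list, median score rank percentile, share of autosomal peaks in the centre and median share of bp inside series-wide peaks; the dashed line marks 5 kb and classes under 20 peaks are left out. The curves run on across 5 kb; the steepest slopes of overlap, score rank and series-wide share lie below 3 kb, and overlap and score rank are lower in the widest class than in the one before.

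Overlap and central position were already high below the width limit. In replicate 1, peaks of 3000 to under 4000 bp overlapped replicate 2 in 90.6% of cases and lay in the centre in 61.5%, and those of 5000 to under 6000 bp did so in 97.8% and 64.0%. Peaks of 1000 to under 2000 bp had 51.9% and 38.3%. In replicate 2 the central share was 64.0% at 3000 to under 4000 bp, 72.2% at 5000 to under 6000 bp and 80.6% at 7500 to under 10000 bp.

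Domains were frequent among the highest scores. They made up 75 of the 100 highest-scoring replicate 1 peaks, against 12.6% of all replicate 1 peaks. In replicate 2 the broad peaks with a broad partner made up 82 of 100, against 402 of all 2875 peaks. Of the 399 domains, 139 ranked above the 90th percentile in both lists and 361 above the median in both, while 6 were below the median in both. The median peak under 5000 bp stood at a percentile of 42.5 in replicate 1 and 41.3 in replicate 2. Over all peaks, width and score had a Spearman's rho of 0.80 in replicate 1 and 0.82 in replicate 2. A choice by width thus favours high scores, and these counts are descriptions. The top ranks included ties at a score of 3100. The best ranked III domain had this score in both lists, and those on IV and V had it in replicate 2. The domain with the highest mean rank on I (1697333 to 1703203) was 5871 bp wide, on II (7045756 to 7055196) 9441 bp, on III (8443012 to 8450815) 7804 bp, on IV (17083815 to 17090170) 6356 bp and on V (8460445 to 8466889) 6445 bp.

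None of these 5 was among the 10 widest by mean width. The widest, on I from 4377553 to 4395082 (17530 bp), kept its edges within a summed offset of 369 bp although its score ranked at 47.3 and 13.8. Others with close edges and middling scores were on I from 9500621 to 9516618 (353 bp, percentiles 49.2 and 55.9), on II from 9043453 to 9057931 (251 bp, 55.6 and 64.8) and on I from 6788219 to 6801840 (182 bp, 60.4 and 69.3). Summed offsets under 1000 bp were also found on II from 14354909 to 14369495 (710 bp) and on I from 7086912 to 7101643 (950 bp). Scores ranked higher in both lists on II from 4695828 to 4710054, at 96.7 and 85.7, and on IV from 379686 to 398484, at 86.6 and 75.1. Against the median domain, at 87.5 and 89.2, only the replicate 1 value of the II domain was higher. The remaining members of the 10 are the chromosome I and III domains described above as joined or split.

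Domains lay far apart on most of their length and close together at some sites. The median gap between neighbouring domains was 96854 bp (quartiles 32015 and 209535 bp, 393 gaps), with medians of 68681 bp on III, 76152 bp on II, 97815 bp on I, 140731 bp on IV and 193982 bp on V. In 13 gaps the distance was at most 1000 bp and in 46 (11.7%) at most 10000 bp. Neighbouring replicate 1 peaks of any width were 9179 bp apart in the median (3152 gaps), and neighbouring peaks under 5000 bp 13746 bp (2618 gaps). A set with more peaks has shorter gaps, so these sets are not on an equal footing. The shortest gaps were 25 bp on IV after 5366510, 27 bp on III after 5448991 and 29 bp on III after 9774806. Of the domains, 18.1% were followed by another domain as the next replicate 1 peak, against 11.8% of peaks that were not domains. The nearest replicate 1 peak of any width was 2191 bp away from the median domain and 2379 bp away from the median peak under 5000 bp.

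Gaps of at most 10000 bp linked 84 domains (21.1%) into 38 runs, 13 on I, 10 on III, 8 on II, 4 on IV and 3 on V. Only 7 runs had 3 or more members, 5 of them on III and 2 on I. The longest held 4 domains on III, from 5674867 to 5717671 (42805 bp, 61.9% of it inside domains). Its members were 5972, 6304, 7970 and 6231 bp wide in replicate 1 and 6194, 5263, 6941 and 7124 bp in replicate 2. Their replicate 1 percentiles ranged from 70.2 to 98.4, and those of replicate 2 from 77.4 to 98.1.

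By 1 Mb window, the richest was III from 5 to 6 Mb, with 16 domains that added up to 114 kb. Next came II from 11 to 12 Mb, III from 4 to 5 Mb and III from 9 to 10 Mb, with 14 domains each (118, 105 and 109 kb), and II from 5 to 6 Mb with 13. Peaks under 5000 bp in the named windows numbered 50, 29, 53, 26 and 25 in this order, against 30.0 per Mb over all autosomes. Of 85 autosomal windows, 12 held 10 or more domains and together 146 of them (36.6%), while 11 held none. The median autosomal window held 4. The richest windows were picked by their own domain count, so a high share in them is built in. Gaps of more than 1 Mb numbered 8. The longest on each autosome were 4045 kb on V (16797483 to 20842288), 3049 kb on II (1323015 to 4372216), 2320 kb on IV (1057924 to 3377467), 2162 kb on III (904676 to 3067092) and 939 kb on I (10953495 to 11892448). These stretches were not free of MRG-1 peaks. They held 83, 63, 113, 89 and 23 other replicate 1 peaks in the same order.

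The series-wide list resolved the domains into several shorter peaks. This list, called on the same experiment by MACS v2, had a median peak width of 331 bp, and its call on these libraries makes it no independent check. Every domain met at least 1 series-wide peak, with a median of 5 (mean 5.24 ± 2.54 SD over 399 domains) and a maximum of 15. At least 5 were found in 216 domains, at least 10 in 25 and exactly 1 in 11. Replicate 1 peaks under 5000 bp had a median of 2, and 45 of 2624 had 0. Per kb the order was the opposite, at 0.675 in the median domain and 0.888 in the narrower peaks.

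Series-wide peaks filled more of a domain than of most narrower peaks, but peaks just under the limit came close. The median share of bp inside them was 81.0% (quartiles 75.1 and 86.3), against 58.0% (41.6 and 72.7) for peaks under 5000 bp. Among all replicate 1 peaks it was 48.4% at 1000 to under 2000 bp and 73.8% at 3000 to under 4000 bp. It was 71.9% at 4000 to under 5000 bp and 78.9% at 5000 to under 6000 bp. The share was under 50% in 7 domains and in 974 of the narrower peaks. Within domains the series-wide peaks were 168 bp apart in the median (quartiles 102 and 287 bp, 1693 gaps), and 183 bp within the narrower peaks (2863 gaps). The smallest gap was 51 bp in both, as it was in the whole list. Gaps of more than 1000 bp were rare in both, at 19 of the 1693 within domains and 29 of the 2863 within the narrower peaks. The widest series-wide peak of a domain spanned 3280 bp in the median, or 45.1% of the domain. Of the 70 series-wide peaks of at least 5000 bp, 54 lay in domains. Among all series-wide peaks, 14.4% met a domain, with 27.1% of the bases of the list. Both lists come from the same libraries and both choices are by width, so the 54 is a description.

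Wider domains held more series-wide peaks at a like density. From the class under 6000 bp to that of 10000 bp or more, the median number went from 4 to 9, the density stayed between 0.635 and 0.714 per kb and the share of bp between 80.8% and 81.2%. Domains in the centres and in the arms had shares of 81.0% and 81.4%. Peaks under 5000 bp had 68.1% in the centres and 51.5% in the arms of the autosomes, but these sets were not matched for width. Replicate 1 peaks of 1000 to under 2000 bp were 38.3% central with a share of 48.4%. Those of 3000 to under 4000 bp were 61.5% central with a share of 73.8%.

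Some domains departed from this pattern. The X domain had the smallest share of all, 20.8%, with 4 series-wide peaks of at most 654 bp. It was followed by domains on I from 2048879 to 2055259 (37.0%, 5 peaks), on IV from 11582482 to 11588852 (41.9%, 9 peaks), on III from 4169033 to 4176530 (42.2%, 3 peaks) and on II from 6782303 to 6787634 (42.3%, 4 peaks). In all 5 the replicates agreed on the extent, with a Jaccard index from 0.901 to 0.972. At the other end, the split domain on III held 15 series-wide peaks, and those on II from 11666134 to 11680635, on V from 9539227 to 9550452 and on II from 8033672 to 8046802 held 14, 13 and 12. The second domain joined on I also held 13. The IV domain at 379686 stood out by continuity, as a single series-wide peak of 15197 bp filled most of its 18799 bp.

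The series-wide peaks began some way inside the domain edges. Over the 798 edges, 11.4% of the edge positions themselves lay in a series-wide peak, 28.7% at 200 bp inside, 53.9% at 300 bp and 84.6% at 500 bp. The share dipped to 73.9% at 800 bp and reached 88.1% at 2500 bp. Outside the domains it was between 19.7% and 25.3% from 600 to 3000 bp away. Edges of replicate 1 peaks of 3000 to under 5000 bp followed a like course, with 81.0% at 500 bp and 81.2% at 2000 bp inside. Replicate 2 peaks covered 61.7% of the edge positions and 31.0% of the positions 1000 bp outside, and 50.7% and 21.7% for the peaks of 3000 to under 5000 bp.

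**Figure D5:**
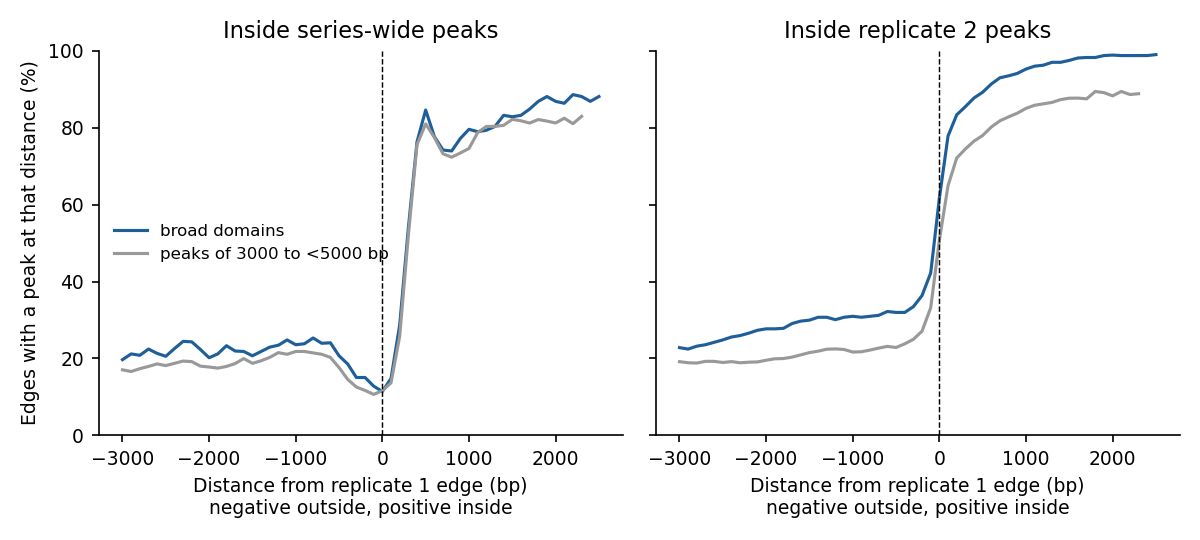
Share of edges (y axis, %) with a series-wide peak (left) or a replicate 2 peak (right) at each distance from a replicate 1 edge (x axis, bp, left and right edges mirrored), for broad domains (blue) and replicate 1 peaks of 3000 to under 5000 bp (grey). Series-wide peaks rise from 11.4% at the domain edge to 84.6% at 500 bp inside and dip to 73.9% at 800 bp; replicate 2 peaks rise across the edge itself.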

How the data were processed

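The values were the peak scores and coordinates the authors deposited for each MRG-1 ChIP library (MACS) and for the whole series (MACS v2), on WormBase WS220, per the file headers and source columns. The authors' score has no definition in the headers; its lowest value was 50 for both replicates and 1.3 series-wide, so scores were only ranked within a list. BWA and ce10 appear in the submitters' processing notes with no role stated. Caller settings, the control and read depth are not given in the sources. Per the labels' protocols, crosslinking was with 1.85% formaldehyde (30 min) and ChIP chromatin was sonicated 14 times.

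Lists were used as deposited, without mitochondrial peaks. A chromosome's span ended at the last peak in any list (100.2 Mb over 6 chromosomes). A partner was the replicate 2 peak sharing most bases. For a domain it was chosen among peaks of at least 5000 bp; in 1 domain a narrower peak shared more bases. Position was that of the midpoint. Intervals are exact (Clopper-Pearson) at 95% and cover counting error only. No tests were run, because width chose the domains and there were 2 libraries. Members, lists and rules were chosen with earlier results of these data known. Named regions were the 10 widest domains, the best ranked per chromosome, those on X, the 5 best and worst matched at the edges, the 5 with most series-wide peaks and the 5 least filled by them, the longest run, the longest gap per chromosome and those nearest the limit. The closest gaps, richest windows, matches of any width, joined domains and X peaks outside the rule were chosen after their values were seen. Alternatives changed the width limit, overlap rule, reference list, merging, score filter and centre, and left out each replicate. The procedure was tested on simulated data. No annotation or genome of WS220 was given, so regions are reported by position, without genes or sequences; the WBcel235 table gave only gene numbers per chromosome. Computations used scipy 1.17.1, pandas 2.3.3, numpy 2.4.6 and matplotlib 3.10.9 in Python 3.11.15.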

Additional observations from a re-analysis of the deposited data

Results flagged for a closer look

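A peak of domain width lay outside the nuclear chromosomes. The replicate 2 list held 1 mitochondrial peak of 13638 bp, which passes the 5000 bp limit, and the replicate 1 list held 0, so the rule could not make it a domain. It was singled out as signal in data that no comparison uses. The series-wide list had 4 mitochondrial peaks, the widest 6656 bp. The level in the input libraries was not analysed here.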

How the results depend on the processing

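Of 78 alternatives over 10 results, 48 stayed within a factor of 1.5 (counts), the 95% interval or 1 SD of the replicates (n = 2), and 30 moved further. No result had a test, so none could lose a call. With a width limit of 4000 bp there were 617 domains, a median gap of 64944 bp, a mean rho of 0.13 in place of -0.12, a mean percentile of 85.5 in place of 88.3 and a series-wide share of 79.9%. With 7500 bp these were 122 domains, 298702 bp, -0.36 and 86.9, with 6.5 series-wide peaks per domain and both edges within 500 bp in 50% of domains. The limit fixes how many domains there are and so their spacing. Merging peaks less than 500 bp apart gave both edges within 500 bp in 36.8%, a gap of 74540 bp, a rho of 0.038, a percentile of 85.4, 6 series-wide peaks and a share of 77.8%. The sign of the weak relation of width and score thus depends on the limit and on merging. The top 50% of each list by score gave a percentile of 79.4, which is re-ranked by construction, and replicate 2 peaks as domains a share of 80.2%. The top 50% of series-wide peaks left 3 per domain and 74.0% of bp. Centres narrowed to 0.333 of the span and widened to 60% held 47.2% and 80.4% of autosomal domains, against 33.5% and 57.6% of peaks under 5000 bp. Broad replicate 2 peaks had replicate 1 partners of 6304 bp in place of 6614 bp. The cause was not tested for the rest. Leaving out a replicate gave 534 to 544 domains, 64.2% to 75.8% in the centre, gaps of 62191 to 82730 bp, percentiles of 87.03 to 87.05, shares of 77.97% to 79.86%, a rho of -0.08 to -0.04 and 25.3% to 26.7% of domains on III; edge agreement needs both. No paired analysis was possible because only the ChIP group was used here, and no result came from a test. Depth is unknown, so its limits cannot be stated.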
